A study of Mus musculus with 4 samples.

Results

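The mitochondrial respiratory chain was followed through the transcripts of its subunits in mouse macrophages. Members were the genes whose symbols begin with Ndufa, Ndufb, Ndufc, Ndufs, Ndufv, Uqcr, Cox4 to Cox8 or Atp5, the genes Sdha, Sdhb, Sdhc and Sdhd, and every gene of the mitochondrial genome. This choice used symbols alone and gave 101 of the 14432 genes counted. They were 79 nuclear-encoded subunits, 8 complex I assembly factors (Ndufaf genes), the accessory gene Atp5s and 13 protein-coding genes of the mitochondrial genome (mt- genes). Ndufa4 was kept with complex I by its symbol, although its protein is now counted with complex IV.

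The respiratory chain passes electrons from NADH and succinate through complexes I and II to ubiquinone, and then through complex III and cytochrome c to complex IV, where oxygen is reduced. Complexes I, III and IV pump protons across the inner mitochondrial membrane, and complex V (ATP synthase) uses the gradient to make ATP. Complexes I, III, IV and V are built from both genomes, and complex II from nuclear genes alone, so their assembly needs 2 sets of transcripts made by different polymerases. Macrophages activated by lipopolysaccharide (LPS), a component of the outer membrane of Gram-negative bacteria, are known to lean on glycolysis and to use parts of the respiratory chain for signalling.

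The cells were bone marrow-derived macrophages, which grow out of marrow in the growth factor M-CSF (50 ng/mL), from mice 8 to 12 weeks old. The mice were wild type (C57BL/6 or C57BL/6J in the labels) or carried the label Trpv4-null, for loss of the calcium-permeable channel TRPV4. Cells of each genotype were left untreated or given LPS at 100 ng/mL for 24 h, which makes 4 groups of 1 library each. The design text mentions 3 mice per genotype, but cells carry the name of a library and not of a mouse, and which part of the gene the null allele lacks is not given. A deletion outside the counted 3′ ends would not show in Trpv4 counts. No difference below has a replicate check, nothing was tested, and all intervals cover counting error only.

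The count table held unique molecular identifiers (UMIs, 1 per captured transcript) for 27366 cells, between 5485 and 8288 per library, and from 43731003 to 144090985 UMIs per library. Median depth was 5660.5 UMIs per cell in untreated wild type and 7893 in untreated null-labelled cells, and 16673.5 and 16041 in their LPS-treated counterparts. Pairs of libraries shared 7 to 16 cell barcodes. All 7 macrophage markers were found in every library and summed to between 19050 and 26020 CPM (counts per 1000000 UMIs of a library). Sums for other cell types were low and moved with treatment. The 5 neutrophil markers counted summed to 182.0 and 327.6 CPM in the untreated libraries and 52.4 and 41.6 CPM in the treated ones, with 1 of them, Ngp, at 0 in the LPS-treated null-labelled library. The 3 B cell markers summed to 140.7 and 142.2 CPM in the former and 3.83 and 2.70 CPM in the latter, with 1, Ms4a1, at 0 in untreated null-labelled cells. The 4 dendritic markers summed to at most 1.55 CPM, with 2 at 0 in the LPS-treated null-labelled library, the T cell gene Cd3d reached at most 0.0686 CPM, and the stromal gene Dcn was at 0 untreated and at 3.64 and 4.59 CPM after LPS. The 4 cycling markers Mki67, Top2a, Ccnb1 and Cdk1 summed to 171.1 and 299.6 CPM before and 76.3 and 97.3 CPM after treatment. The part of these cells in the differences below was not tested, except that leaving out the cluster named Proliferating left the gap between the 2 genomes as large (mitochondrial minus nuclear median, -1.37 in wild type and -1.31 with the null label, on the log2 scale). Trpv4 itself did not follow the label. It had 5.83 and 2.07 CPM in the untreated and LPS-treated wild-type libraries, and 8.6 and 9.62 CPM in those labelled Trpv4-null, so the genotype is written as a label throughout.

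Transcripts of the mitochondrial genome made up a smaller share of all UMIs after LPS, whereas nuclear-encoded subunits, summed over all complexes, did not. The 13 mt- genes held 5.96% of UMIs in untreated and 3.20% in LPS-treated wild-type cells, and 6.17% and 3.30% in null-labelled cells. Nuclear-encoded subunits held 1.70% and 1.93% of UMIs in wild type, and 1.73% and 1.86% in the null-labelled libraries. The number of mitochondrial UMIs per nuclear subunit UMI was therefore 3.51 untreated and 1.66 after LPS in wild type, and 3.57 and 1.77 with the Trpv4-null label. As means over cells, mitochondrial UMIs numbered 371.1 and 556.5 per wild-type cell and 528.6 and 547.2 per null-labelled cell, untreated and after LPS. Nuclear subunit UMIs numbered 105.9 and 334.9, and 147.9 and 308.6, in the same order. The UMIs counted per cell were thus not lower after LPS for either genome, and mitochondrial transcripts stood lower as a share of a larger UMI total. UMIs per cell also follow how each library was captured and sequenced, so these counts cannot show whether RNA per cell differed.

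Every one of the 13 mt- genes stood lower after LPS in both genotypes. Log2 ratios of CPM (with 1 CPM added, which understates ratios of genes near that level) had a median of -1.06 over the 13 genes in wild type and -1.10 in null-labelled cells. The median over all genes compared, which had at least 20 CPM and 30 UMIs in the higher library, was -0.39 (6332 genes) and -0.42 (6340 genes). In wild type, 12 of the 13 stood at least 1.5-fold lower and 8 at least 2-fold lower, where 37.9% and 17.7% of all genes compared did. With the Trpv4-null label the counts were 12 and 9, against 40.4% and 21.3% of all genes. The sums carried ratios of 0.537 (exact conditional 95% interval 0.536 to 0.538) in wild type and 0.534 (0.533 to 0.535) in null-labelled cells.

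Mitochondrial transcripts are copied from both strands of the circular genome as long precursors, which are cut at tRNAs into mature messengers. 2 messengers each carry a pair of overlapping reading frames, and these junctions are shown because counting cannot tell the members of a pair apart within the shared bases. Capitals mark the bases that belong to both genes on GRCm38, 43 for mt-Atp8 and mt-Atp6 and 7 for mt-Nd4l and mt-Nd4, with 20 bases on either side in lower case.
mt-Atp8/mt-Atp6 (chrM:7907-7989, + strand): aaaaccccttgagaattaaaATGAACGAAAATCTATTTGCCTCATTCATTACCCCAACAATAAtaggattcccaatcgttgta
mt-Nd4l/mt-Nd4 (chrM:10147-10193, + strand): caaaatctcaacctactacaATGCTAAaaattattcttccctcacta

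How the authors' counting treated reads in the shared bases is not given, so each member of a pair is uncertain there. The complex V pair encodes subunits of the membrane part of ATP synthase. Values are given from here on in 1 order of libraries, untreated and LPS-treated wild type, then untreated and LPS-treated with the null label. The gene mt-Atp6, for the subunit a that forms the proton path, had 11940, 5165, 12230 and 5333 CPM. Its small partner mt-Atp8 had 73.2, 30, 64.1 and 24.8 CPM. Both stood more than 2-fold lower in both genotypes, with log2 ratios of -1.21 and -1.20 for mt-Atp6 and -1.26 and -1.34 for mt-Atp8.

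Of the mitochondrial subunits of complex I, which form its membrane arm, mt-Nd3 stood lowest relative to untreated cells. Its 4 values were 563.7, 219.4, 725.5 and 226.3 CPM, with log2 ratios of -1.36 in wild type and -1.68 in null-labelled cells. The only protein gene read from the other strand of the circle, mt-Nd6, had 30.5, 12.3, 30.5 and 11.4 CPM (-1.25 and -1.35). The overlapping pair mt-Nd4l and mt-Nd4 stood at log2 ratios of -1.09 and -1.06 in wild type and -1.28 and -1.10 with the null label. The genes mt-Nd2 (2056, 1028, 2124 and 1036 CPM) and mt-Nd5 (514.6, 254.1, 453.0 and 223.6 CPM) lay between these and mt-Nd1. The ratio nearest to 0 in this arm was that of mt-Nd1, with 2199, 1318, 2353 and 1330 CPM and log2 ratios of -0.74 and -0.82.

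Complex III has a single mitochondrial subunit, the cytochrome b encoded by mt-Cytb. It had 3609, 1538, 3613 and 1556 CPM, with the LPS-treated libraries at 0.426 (0.424 to 0.429) and 0.431 (0.428 to 0.434) of the untreated level. Complex IV has 3 mitochondrial subunits, which form its catalytic core. The gene mt-Co2, whose protein receives electrons from cytochrome c, had 10740, 5677, 10780 and 5789 CPM, and mt-Co3 had 10880, 5570, 11650 and 6092 CPM. The gene mt-Co1, for the subunit that holds the site of oxygen reduction, stood apart from the other 12 with 13160, 9346, 14100 and 9668 CPM, and log2 ratios of -0.49 and -0.54. It was the 1 mt- gene of the 13 whose direction depended on the scaling: with size factors from the median of gene ratios its log2 ratios were 0.04 and 0.07, and the other 12 stayed below 0 in both genotypes. Under it 5 of the 13 stood at least 1.5-fold lower in wild type and 6 with the null label, where 14.5% and 15.9% of all genes did. That scaling moved the median of all genes from -0.39 to 0.13 in wild type and from -0.42 to 0.18 in null-labelled cells.

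**Figure D1:**
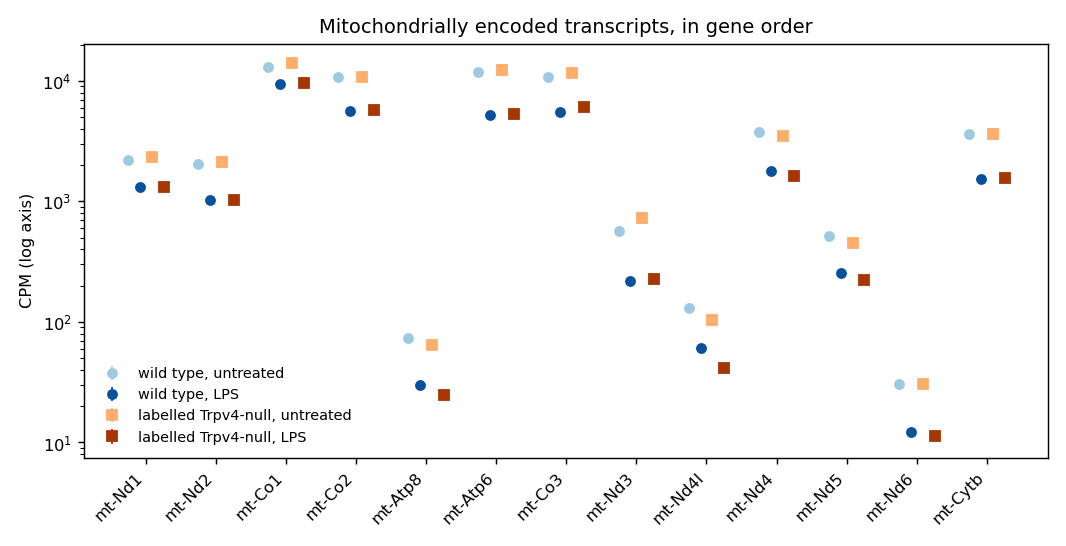
CPM (log axis) of the 13 mitochondrially encoded genes in the 4 libraries, in the order of the genes on the mitochondrial genome; bars are exact Poisson 95% counting intervals, mostly smaller than the symbols. In each gene both LPS-treated libraries lie below both untreated ones, by the least for mt-Co1 (9346 and 9668 CPM against 13160 and 14100 CPM).

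Nuclear-encoded subunits stood near their untreated level as a set and differed among themselves. Of the 79, 75 were abundant enough to compare, and the median log2 ratio after LPS was 0.29 in wild type, with 55 above 0, and 0.19 in null-labelled cells, with 50 above 0. Of all genes compared, 1825 of 6332 and 1858 of 6340 stood above 0. In wild type, 17 stood at least 1.5-fold higher and 3 at least 1.5-fold lower, where 11.3% and 37.9% of all genes did, and none stood 2-fold higher, where 6.9% of all genes did. With the Trpv4-null label the counts were 9 and 3, against 11.9% and 40.4% of all genes, and none stood 2-fold higher, against 7.3%. These counts followed the scaling: with median-of-ratios size factors 49 and 50 of the 75 stood at least 1.5-fold higher, where 26.1% and 29.9% of all genes did, and the medians were 0.82 and 0.80. The direction of single subunits followed it too. With those factors, and with TMM factors, 17 of the 75 changed sign in wild type and 22 with the null label, which left 72 above 0 and 3 below in each, where 3686 of 6332 and 3807 of 6340 genes stood above 0 with the former. Below 0 in both genotypes under all 3 scalings were Cox7a2l (-0.31 and -0.25 with median-of-ratios factors) and Uqcrh (-0.15 and -0.10). Directions below 0 given for other nuclear subunits hold for total counts. The mitochondrial minus the nuclear median was -1.35 in wild type and -1.295 with the null label; a factor per library moves both medians alike, so other scalings say nothing more on this gap.

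**Figure D2:**
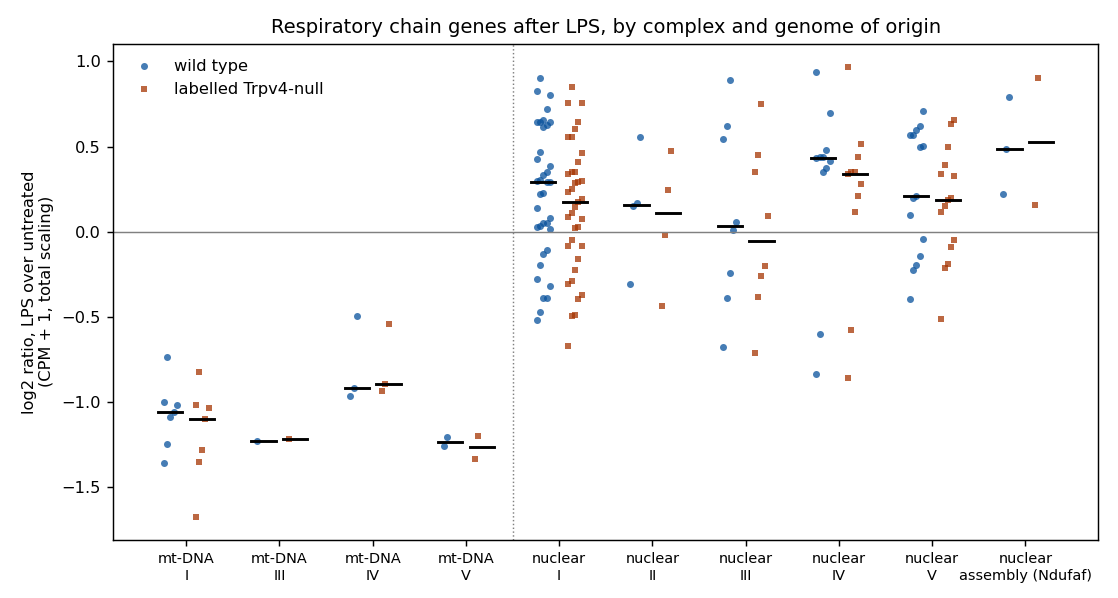
Log2 ratio of LPS-treated to untreated CPM (1 CPM added) for each member compared, by complex and genome of origin; blue circles are wild type, red squares the libraries labelled Trpv4-null, and black lines medians. Mitochondrial members all lie below 0 (medians -1.06 and -1.10 over all complexes), and nuclear members lie on both sides of 0 with total counts, between -0.86 and 0.97.

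All 37 nuclear subunits of complex I were compared, and their median log2 ratio was 0.29 in wild type and 0.17 with the null label. The highest were accessory subunits. Ndufc1 had 126.0, 236.6, 129.7 and 219.8 CPM, with ratios of 1.88 (1.83 to 1.93) and 1.69 (1.65 to 1.74). Ndufa11, a membrane arm subunit, had 89.6, 159.9, 91.7 and 166.2 CPM (1.78 and 1.81), and Ndufa12 had 63.3, 111.3, 66.2 and 112.3 CPM (1.76 and 1.70). These 3 genes were named for their high LPS ratios, so the place of their LPS-treated libraries above both untreated ones adds nothing to the ratios.

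Core subunits of complex I, which include those that carry the flavin and the iron-sulfur clusters, stood on both sides of 0 on the log2 scale. Ndufv1, which binds NADH, had 43.6, 35.8, 47.9 and 38.5 CPM. Ndufs1, the largest of them, had 45, 34.1, 47.1 and 29.3 CPM. Both genes stood lower after LPS in either genotype with total counts, and with median-of-ratios factors Ndufv1 was at 0.24 and 0.29 and Ndufs1 at 0.13 and -0.075. Ndufs8 was below 0 by less, with log2 ratios of -0.11 and -0.09. Ndufs3 (0.35 and 0.35), Ndufs7 (0.30 and 0.34) and Ndufv2 (0.05 and 0.02) were above 0. In cells of 8000 to 12000 UMIs, Ndufs8 was at -0.72 and -0.50, Ndufv1 at -0.68 and -0.60 and Ndufs1 at -0.14 and -0.34. Ndufv2 was below 0 there (-0.43 and -0.35), Ndufs7 was at 0.03 and 0.04, and Ndufs3 at 0.05 and 0.21. The order of these subunits and the sign of Ndufv2 thus differed from those in all cells. Beyond the core, Ndufb11 in the membrane arm was lowest in wild type when all cells were used (-0.52 and -0.49). It had 221.4, 154.2, 222.8 and 157.8 CPM. Ndufb11 overlaps Rbm10 on the opposite strand by 117 bases, and whether counting used strand is not given in the sources used here.

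Complex II, succinate dehydrogenase, also serves the citric acid cycle, and its 4 genes differed in direction. Sdhb, the iron-sulfur subunit, had 147.0, 216.5, 155.0 and 215.7 CPM, with ratios of 1.47 (1.43 to 1.51) and 1.39 (1.36 to 1.43). Sdha, the flavoprotein that oxidises succinate, had 146.0, 117.8, 144.8 and 106.7 CPM, with ratios of 0.807 (0.784 to 0.831) and 0.737 (0.715 to 0.759). With total counts Sdhb thus stood higher and Sdha lower after LPS in both genotypes, whereas with median-of-ratios factors both stood higher, Sdha by 0.22 and 0.17 and Sdhb by 1.09 and 1.08 on the log2 scale. The membrane anchors were nearer to 0, with 103.1, 115.9, 97.5 and 115.7 CPM for Sdhc and 115.0, 127.5, 113.4 and 111.8 CPM for Sdhd. In cells of 8000 to 12000 UMIs the log2 ratios of Sdhb were 0.11 and 0.08 and those of Sdha -0.028 and -0.21, so most of the gap between the 2 genes was not seen in those cells.

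Complex III held members at both ends of the range. Its 8 nuclear subunits, summed, had ratios of 1.049 (1.040 to 1.057) in wild type and 0.974 (0.966 to 0.982) with the null label. Uqcrq had 200.8, 372.5, 208.2 and 350.5 CPM, with ratios of 1.86 (1.81 to 1.90) and 1.68 (1.65 to 1.72). Uqcrh, the hinge protein that helps cytochrome c dock, had 638.3, 398.1, 620.3 and 378.9 CPM, with ratios of 0.624 (0.615 to 0.633) and 0.611 (0.602 to 0.620). Both the core proteins Uqcrc1 and Uqcrc2 were within 0.25 of 0 on the log2 scale in both genotypes (0.01 and 0.09, and -0.24 and -0.20). The Rieske iron-sulfur protein Uqcrfs1 had 137.5, 104.9, 129.3 and 99.0 CPM. Uqcr10 (0.62 and 0.35) and Uqcrb (0.54 and 0.45) were above 0 in both genotypes, and Uqcr11 was at 0.06 in wild type and -0.26 in null-labelled cells.

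For nuclear subunits in all cells, complex IV had the highest median of the complexes. It was 0.43 in wild type and 0.34 with the null label over 11 subunits, with 9 of them above 0. This order did not hold in cells of 8000 to 12000 UMIs. There the complex IV median was 0.18 in wild type and 0.048 with the null label, below that of complex II in both genotypes. Cox5a and Cox4i1, which join mt-Co1 early in assembly, stood in opposite directions with total counts. Cox5a (chr9:57521274-57532426 on GRCm38) had 375.3, 719.0, 343.9 and 674.7 CPM, with ratios that were the highest of the 75 nuclear subunits in both genotypes, 1.92 (1.89 to 1.95) and 1.96 (1.93 to 2.0). Cox4i1 (chr8:120668222-120674207) had 1274, 840.5, 1214 and 813.4 CPM, with ratios of 0.660 (0.653 to 0.666) and 0.670 (0.663 to 0.677). With median-of-ratios factors Cox4i1 was near level, at -0.068 and 0.032 on the log2 scale, and Cox5a still stood higher. Cox4i1 overlaps Emc8 on the opposite strand by 352 bases. Emc8 itself had 58.5, 43.8, 55.8 and 42.0 CPM.

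The remaining complex IV subunits Cox5b, Cox6a1, Cox6b1, Cox6c, Cox7b, Cox7c and Cox8a lay close together, with log2 ratios from 0.35 to 0.48 in wild type and from 0.12 to 0.44 with the null label. In cells of 8000 to 12000 UMIs they lay further apart, with Cox6a1 at 0.54 and 0.47, Cox5b at -0.24 and -0.13 and Cox7b at -0.047 and -0.13. Cox8a, for example, had 682.1, 925.5, 686.5 and 833.0 CPM. The lowest ratio of the 75 nuclear subunits compared was that of Cox7a2l (chr17:83501918-83517330), with 544.0, 303.9, 527.9 and 291.1 CPM and ratios of 0.559 (0.550 to 0.568) and 0.551 (0.542 to 0.561). Its protein, a relative of the complex IV subunit Cox7a2, is known for joining complexes III and IV into supercomplexes, and C57BL/6 mice are known to make a shortened form of it.

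The 15 nuclear genes of complex V had a median log2 ratio of 0.21 in wild type and 0.18 with the null label, and 10 stood above 0 in each. In the catalytic head, which alternates alpha and beta subunits, the beta gene Atp5b had 206.1, 317.0, 214.1 and 332.3 CPM, and the alpha gene Atp5a1 had 319.7, 273.9, 305.4 and 268.2 CPM. With total counts the beta gene stood higher and the alpha gene lower after LPS in both genotypes, with log2 ratios of 0.62 and 0.63 for Atp5b and -0.22 and -0.19 for Atp5a1. With median-of-ratios factors both stood higher, Atp5a1 at 0.31 and 0.42 and Atp5b at 1.15 and 1.24. Of the central stalk, Atp5c1 (-0.19 and -0.21) and Atp5d (-0.04 and -0.05) were below 0 and Atp5e (0.57 and 0.33) above. In the peripheral stalk, Atp5o.1 had ratios of 0.60 and 0.50, Atp5j 0.21 and 0.18, Atp5f1 0.10 and 0.15, and Atp5h -0.14 and -0.09, all on the log2 scale. The small membrane subunits Atp5j2 (0.57 and 0.39), Atp5k (0.51 and 0.20) and Atp5l (0.20 and 0.12) were above 0.

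Several subunits exist as alternative forms from separate genes, and the balance between forms differed between untreated and LPS-treated libraries. The shares are of UMIs and were not scaled for transcript length. Among the Cox7a genes, Cox7a2l held 64.8% of the set's UMIs (exact 95% interval 64.3 to 65.3%) in untreated wild-type cells and 39.1% (38.8 to 39.4%) after LPS, and 62.4% and 39.4% with the null label. Cox7a2 held most of the rest, 34.6%, 60.5%, 36.7% and 60.2%. Within the 8 clusters with at least 100 cells per library, the share of Cox7a2l ran from 57.1 to 67.4% in untreated and from 34.7 to 42.7% in LPS-treated wild-type cells, without overlap, and from 57.2 to 65.4% and 36.7 to 42.4% with the null label. In cells of 8000 to 12000 UMIs the shares were 62.3%, 44.7%, 61.7% and 43.6%, in the same direction with a smaller gap.

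The c subunit of the ATP synthase rotor is encoded by Atp5g1, Atp5g2 and Atp5g3, whose mature proteins are identical and whose import sequences differ. Atp5g2 held 59.3% of the set's UMIs (58.8 to 59.8%) in untreated and 42.3% (42.1 to 42.6%) in LPS-treated wild-type cells, and 60.1% and 43.0% in null-labelled cells. Atp5g1 held 17.1%, 26.3%, 17.01% and 27.4%, and Atp5g3 held 23.6%, 31.4%, 22.9% and 29.6%. In cells of 8000 to 12000 UMIs the share of Atp5g2 was 58.0%, 42.0%, 60.4% and 44.1%, nearly as far apart as in all cells. Reads from such close copies could have been split by the authors' counting, which makes each share uncertain.

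**Figure D3:**
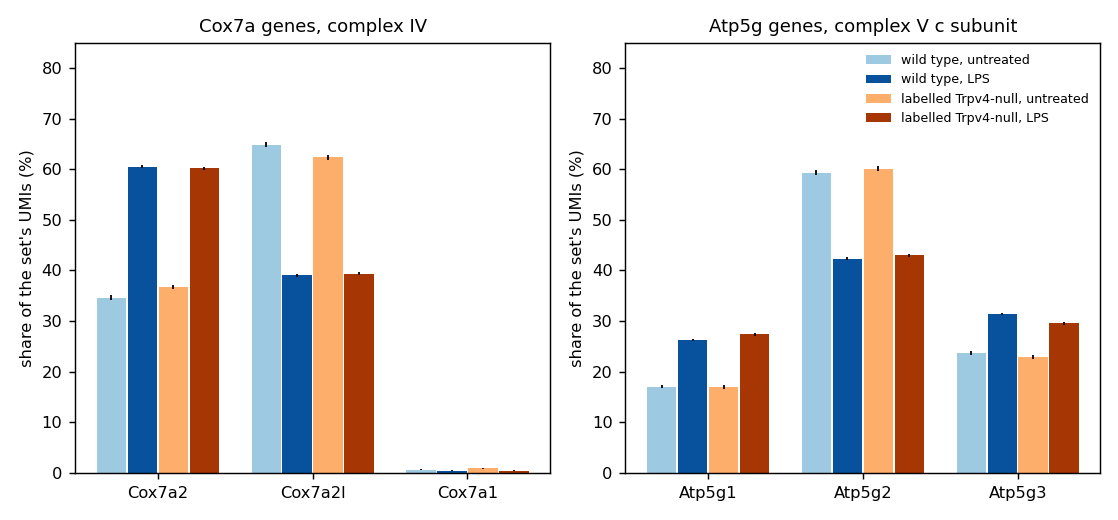
Share of the UMIs of the Cox7a genes (left) and of the Atp5g genes (right) held by each gene in the 4 libraries, in percent; bars are shares and black lines exact binomial 95% intervals for counting error. The share of Cox7a2l is 64.8% and 62.4% in untreated and 39.1% and 39.4% in LPS-treated libraries, and that of Atp5g2 59.3% and 60.1% against 42.3% and 43.0%.

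The forms known from muscle, lung or testis were rare. Cox6a2, the heart and skeletal muscle form of Cox6a, had 31, 1110, 37 and 792 UMIs, or 0.709, 7.70, 0.787 and 7.26 CPM, with LPS-treated libraries 10.9-fold (7.61 to 16.1) and 9.23-fold (6.64 to 13.2) higher. All 8 clusters had a higher Cox6a2 level after LPS in both genotypes, and the gene still made up under 3% of Cox6a UMIs. Cox6a2 (chr7:128205435-128206387) lies within Itgad, an integrin gene on the opposite strand, over 953 bases, so that its UMIs cannot be told apart from Itgad transcripts if strand was not used. Itgad itself was counted with 0, 35, 0 and 20 UMIs. Cox6b2, the testis form of Cox6b, stood the other way with 1.81, 0.132, 2.57 and 0.257 CPM and ratios of 0.0730 (0.0418 to 0.122) and 0.0998 (0.0637 to 0.152). It was most frequent in the untreated cells of the cluster named Proliferating, at 4.62 and 7.34 CPM. Cox7a1, the muscle form of Cox7a, had 5.03, 3.62, 7.53 and 3.27 CPM, and Cox4i2, the lung form of Cox4, lay near 0.1 CPM in each library. Cox7b2, Cox8b, Cox8c and Ndufa4l2 were not analysed here.

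Complex I assembly factors were low, and 3 of 8 reached the level for comparison in wild type. Ndufaf3 had 26.7, 47.1, 23.8 and 45.4 CPM, with ratios of 1.76 (1.66 to 1.88) and 1.90 (1.78 to 2.03). Ndufaf8 had 58.5, 68.4, 54.7 and 61.0 CPM, and Ndufaf4 14.6, 20.8, 11.2 and 14.9 CPM. Below that level, Ndufaf5 (1.86 and 1.39) and Ndufaf6 (1.97 and 1.76) had ratios above 1. Ndufaf7, a methyltransferase, had 9.65, 4.55, 9.66 and 4.33 CPM, with ratios of 0.471 (0.416 to 0.534) and 0.448 (0.393 to 0.511). Ndufaf1 and Ndufaf2 were near the same level in each library (7.84 to 8.82 and 14.6 to 16.0 CPM), and the accessory gene Atp5s had 5.08, 4.44, 5.72 and 3.38 CPM.

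Genes outside the symbol rule, most of which work beside the subunits, were counted as lists, and their counts followed the scaling. Total counts put 1825 of 6332 and 1858 of 6340 of all genes above 0, and median-of-ratios factors 3686 and 3807. Of 6 electron carriers and entry points compared in wild type, 3 were above 0 with a median log2 ratio of 0.19, and of 7 with the null label 3 were above 0 with a median of -0.18. With median-of-ratios factors 6 of 6 and 6 of 7 were above 0. Cycs, the cytochrome c that links complexes III and IV, had 38.6, 216.8, 33.3 and 221.2 CPM (2.46 and 2.70). Cyc1, the cytochrome c1 of complex III, is itself a subunit that the symbol rule left out of the set above. It had 51.4, 76.9, 49.8 and 79.9 CPM (0.57 and 0.67). Gpd2, which feeds electrons from glycerol 3-phosphate to ubiquinone, had 13.5, 111.9, 11.5 and 112.0 CPM (2.96 and 3.17). The ratios of Cycs and Gpd2 were larger than that of any subunit compared. Assembly factors outside the Ndufaf genes were above 0 in 13 of 24 compared (median 0.077) in wild type and in 10 of 23 (median -0.055) with the null label, and with median-of-ratios factors in 21 and 20 of them. Their ends were Uqcc2 (1.22 and 1.02), a complex III assembly factor, and Higd2a (-0.97 and -1.10), known from supercomplex assembly.

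Of 10 compared genes that keep mitochondrial DNA and RNA, 5 stood above and 5 below 0 in wild type (median -0.087), and 4 above and 6 below in null-labelled cells (median -0.31). The counts above 0 with median-of-ratios factors were 7 and 5. Slirp, an RNA-binding protein that protects mitochondrial messengers, had 57.9, 132.0, 70.2 and 149.2 CPM (1.18 and 1.08). Pnpt1, part of the mitochondrial RNA degradation machinery and an interferon-induced gene, had 9.83, 23.6, 9.49 and 23.9 CPM, higher after LPS in both genotypes. Grsf1 (-0.75 and -0.86), a protein of mitochondrial RNA granules, and Polg (-0.68 and -0.79), the mitochondrial DNA polymerase, were at the lower end.

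Mitochondrial ribosomal protein genes had 45 of 67 above 0 with a median of 0.19 in wild type, and 40 of 68 and 0.15 with the null label. With median-of-ratios factors 63 of 67 and 63 of 68 stood above 0, and in cells of 8000 to 12000 UMIs with total counts 28 and 33 of 68. The highest was Mrpl52, of the large ribosomal subunit, with 104.5, 378.6, 93.7 and 296.6 CPM. Among transcriptional regulators of these genes, nuclear respiratory factor Nrf1 (29.1, 15.8, 24.8 and 15.5 CPM), Gabpa (28.8, 15.9, 25.04 and 14.4 CPM) and Yy1 (106.4, 66.5, 99.5 and 60.3 CPM) stood lower after LPS, while Esrra (0.34 and 0.46) and Hif1a (0.69 and 0.16) stood higher on the log2 scale. Enzymes of the citric acid cycle had 5 of 16 above 0 in each genotype, with medians of -0.17 and -0.19, and 13 of 16 in each with median-of-ratios factors, with medians of 0.35 and 0.41. Fumarase (Fh1) was lowest with 54.4, 20.9, 97.0 and 19.3 CPM, and Idh3g had 87.8, 43.1, 102.0 and 44.2 CPM. Acod1, which draws citric acid cycle carbon off into itaconate, had 2.20, 1236, 2.47 and 1652 CPM.

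Promoters of nuclear members were read to see which known letters they share, since NRF1, ETS factors such as GABPA, YY1 and CREB are known regulators of respiratory genes. RefSeq windows of 300 bases on GRCm38.p6, from 250 bases before to 50 after the annotated start, matched 74 of the 88 nuclear members. The NRF1 letters, GCGCA and GCGC with any 1 base between them, occurred in 19 of the 74 (25.7%) and in 5.19% of 27025 genes, on either strand. The YY1 letters AANATGGC occurred in 19 (25.7%) against 6.96%, the ETS letters CCGGAAGT in 5 (6.76%) against 4.31%, and the CRE letters TGACGTCA in 4 (5.41%) against 2.03%. Medians of the LPS ratio with and without the letters lay close together for 3 of the 4 motifs. Compared subunits with the NRF1 letters had a median log2 ratio of 0.33 (17 genes) in wild type and those without 0.30 (47 genes), and the medians were 0.29 (17 genes) and 0.33 (47 genes) for YY1 and 0.25 (4 genes) and 0.30 (60 genes) for CRE. For the ETS letters they were 0.057 (5 genes) and 0.30 (59 genes), over too few genes to read a difference.

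4 windows are printed to show both ends of the range, in the direction of transcription with matched letters in capitals. Of the 75 subunits compared, Cox7a2l and Cox5a have the lowest and highest wild-type ratio, and their windows hold none of the 4 motifs. The Cox7a2l window, at the RefSeq start, lies inside the GENCODE span of the gene (chr17:83501918-83517330). The bases at the GENCODE start were therefore not read. Uqcrh, the next lowest, holds ETS letters on the opposite strand, and Ndufa11, the third highest of the subunits with a window, holds CRE and NRF1 letters.
Cox7a2l (chr17:83514284-83514583, - strand): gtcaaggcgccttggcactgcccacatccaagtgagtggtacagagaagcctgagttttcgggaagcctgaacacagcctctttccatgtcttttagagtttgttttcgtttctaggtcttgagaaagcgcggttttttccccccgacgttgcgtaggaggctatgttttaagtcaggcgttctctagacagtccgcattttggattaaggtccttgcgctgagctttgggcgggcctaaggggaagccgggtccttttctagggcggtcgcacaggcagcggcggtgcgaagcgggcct
Uqcrh (chr4:116075021-116075320, - strand): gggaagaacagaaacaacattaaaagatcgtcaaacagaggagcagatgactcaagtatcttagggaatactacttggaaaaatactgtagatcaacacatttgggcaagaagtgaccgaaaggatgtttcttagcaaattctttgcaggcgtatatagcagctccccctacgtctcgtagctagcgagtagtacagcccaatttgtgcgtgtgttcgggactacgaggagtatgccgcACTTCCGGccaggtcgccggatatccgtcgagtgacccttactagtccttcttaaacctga
Ndufa11 (chr17:56717512-56717811, + strand): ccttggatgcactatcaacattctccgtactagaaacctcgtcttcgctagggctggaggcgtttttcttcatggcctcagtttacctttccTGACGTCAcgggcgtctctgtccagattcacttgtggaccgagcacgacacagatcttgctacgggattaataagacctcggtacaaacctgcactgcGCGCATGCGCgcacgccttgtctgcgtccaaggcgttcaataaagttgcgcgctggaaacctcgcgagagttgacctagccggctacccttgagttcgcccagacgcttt
Cox5a (chr9:57520982-57521281, + strand): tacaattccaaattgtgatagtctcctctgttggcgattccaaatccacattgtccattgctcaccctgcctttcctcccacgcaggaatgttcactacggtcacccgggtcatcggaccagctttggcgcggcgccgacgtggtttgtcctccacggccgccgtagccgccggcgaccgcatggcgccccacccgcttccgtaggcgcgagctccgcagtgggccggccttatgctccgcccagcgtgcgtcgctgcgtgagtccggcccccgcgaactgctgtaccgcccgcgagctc

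Depth differed between treated and untreated libraries and moved with the nuclear shares. Shares were therefore also taken within ranges of UMIs per cell, and ratios gene by gene within 1 of them, 8000 to 12000 UMIs. In every library the share of nuclear subunits was greater in cells with more UMIs, from 1.52% in untreated wild-type cells of 1000 to 4000 UMIs to 1.94% in those of 20000 to 40000 (26 cells). Within the same range of UMIs the treatments were close, although cells there were not alike. At 8000 to 12000 UMIs the median depth was 9302.5 untreated and 10273 after LPS in wild type, and 9331 and 10405 with the null label. The cluster named Macrophage made up 21.0%, 39.9%, 26.2% and 36.0% of those cells and Proliferating 10.3%, 4.43%, 8.76% and 4.64%. In cells of 8000 to 12000 UMIs nuclear subunits held 1.76% (1016 cells) and 1.74% (1174 cells) in untreated and LPS-treated wild type, and 1.76% (1873 cells) and 1.69% (991 cells) with the null label. The median log2 ratio of the 75 subunits in these cells was 0.052 in wild type and 0.037 in null-labelled cells. With 42 and 40 above 0, 13 and 12 changed sign against all cells. At least 1.5-fold higher stood 4 in each genotype, where 11.8% and 13.7% of all genes did, and at least 1.5-fold lower 7 in each, where 29.2% and 32.4% of all genes did.

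The mitochondrial difference was seen within these ranges, and its size differed between them. Relative to the untreated share it was smaller than in all cells at 8000 to 12000 UMIs, but not at 20000 to 40000. There the shares were 5.63% untreated (26 cells) and 2.96% after LPS in wild type. With the null label they were 5.78% (90 cells) and 3.07%. In all 6 ranges of UMIs the mitochondrial share was lower after LPS in both genotypes, with 5.62% against 3.86% in wild type and 5.99% against 3.76% with the null label at 8000 to 12000 UMIs. The median log2 ratio of the 13 genes in these cells was -0.72 and -0.83, with all 13 below 0 in both and mt-Co1 at -0.0026 in wild type. At least 1.5-fold lower stood 10 and 11 of the 13. Cox5a (0.68 and 0.81), Ndufc1 (0.81 and 0.78), Uqcrq (0.71 and 0.70), Cox4i1 (-0.65 and -0.73), Uqcrh (-0.57 and -0.68) and Cox7a2l (-0.59 and -0.70) kept their direction and most of their size, as examples of the ends of the range. Ndufa11 (0.36 and 0.50), Ndufa12 (0.43 and 0.59), Atp5b (0.26 and 0.38) and Atp5g1 (0.17 and 0.20), also high in all cells, lay nearer to 0 here.

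**Figure D4:**
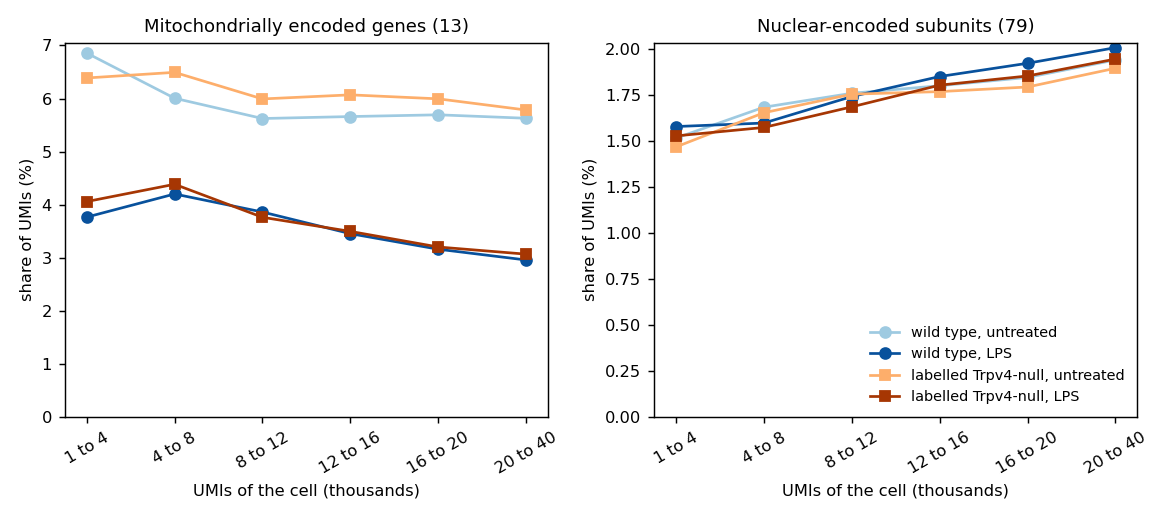
Share of UMIs (percent) from the 13 mitochondrially encoded genes (left) and the 79 nuclear-encoded subunits (right) in cells grouped by their UMI count, for the 4 libraries. Mitochondrial shares of LPS-treated cells lie below those of untreated cells in all 6 groups (3.86% against 5.62% in wild type at 8000 to 12000 UMIs), and nuclear shares of the 4 libraries lie close together and are greater in deeper cells.

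The mitochondrial share also bears on which cells are in the table. Its highest value per cell was 9.98 to 10.0% in each library, and the authors' limit on cells is not given in the sources used here. Untreated libraries had 5.04% and 6.35% of their cells above 9% mitochondrial UMIs, and LPS-treated ones 0.989% and 0.731%. The median cell had 6.06% and 3.05% in wild type, and 6.13% and 3.19% with the null label. Among cells at or below 5%, the mitochondrial minus the nuclear median was -0.90 in wild type and -0.80 with the null label on the log2 scale. The part of cells left out above the highest value in these ratios was not tested. Fth1, a ferritin gene, took 3.94% and 3.60% of UMIs untreated and 11.1% and 10.7% after LPS, and scaling without Fth1, Ftl1 and Saa3 put the nuclear medians at 0.48 and 0.37.

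The difference between the genomes was seen in each of the authors' clusters that held at least 100 cells per library. The mitochondrial median log2 ratio ran from -1.17 to -0.93 over the 8 clusters in wild type, and the nuclear median from 0.13 to 0.40, with ranges of 0.083 to 0.29 for the nuclear median with the null label. Clusters of a library share that library and are not replicates. Mitochondrial UMIs per nuclear subunit UMI ran from 2.94 to 3.86 untreated and from 1.27 to 1.92 after LPS in wild type, without overlap, and from 2.97 to 3.91 and 1.38 to 2.003 with the null label.

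Clusters differed in level within a library. In untreated wild-type cells, mitochondrial transcripts summed to 63920 CPM in the cluster named Macrophage and to 52100 CPM in Ifit1bl1+_Cmpk2+, whose name comes from interferon-response genes. After LPS the same clusters had 36720 and 26210 CPM. Nuclear subunits summed highest in Tmem176+ after LPS (22200 CPM in wild type and 21430 CPM with the null label), and, of the 8 clusters compared, lowest in Ifit1bl1+_Cmpk2+ (17620 and 16520 CPM). Tmem176+ cells after LPS had medians of 21349 and 20476 UMIs, and Ifit1bl1+_Cmpk2+ cells 16398 and 16375.5 UMIs. All 13 mt- genes, and Cox7a2l, Uqcrh, Cox4i1, Ndufb11 and Ndufs1, were below 0 in 8 of 8 clusters in both genotypes with total counts, and Cox5a, Ndufc1, Uqcrq, Ndufa11, Ndufa12, Atp5b, Atp5g1 and Sdhb were above 0 in 8 of 8.

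**Figure D5:**
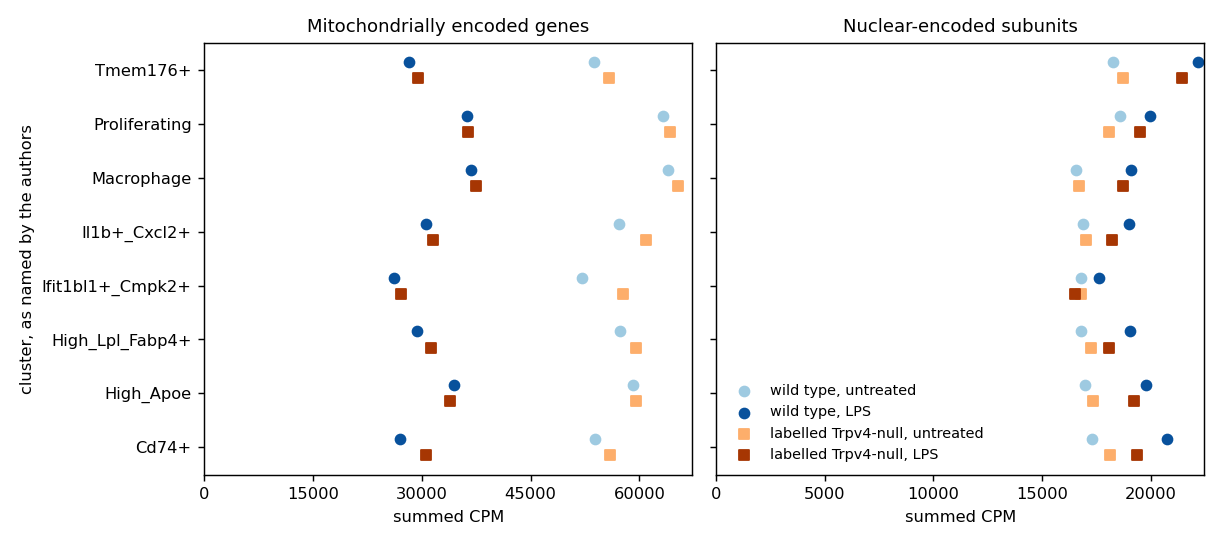
Summed CPM of the 13 mitochondrially encoded genes (left) and the 79 nuclear-encoded subunits (right) in each of the 8 clusters with at least 100 cells per library, with names given by the authors and 1 point per library. Mitochondrial sums of LPS-treated cells lie below those of untreated cells in each cluster (in Macrophage, 36720 against 63920 CPM in wild type), and nuclear sums differ less, from 16520 to 22200 CPM.

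Between genotypes the respiratory chain was close to level. No member compared differed by 1.5-fold in either treatment, where 1.2% of all genes stood higher and 0.666% lower by that much in untreated cells, and 0.840% and 0.248% after LPS. The median log2 ratio of null-labelled to wild-type cells was 0.023 for nuclear subunits and 0.0047 for mt- genes untreated, and -0.044 and 0.015 after LPS. Median-of-ratios scaling put the nuclear median after LPS at 0.034, so its sign follows the scaling.

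A few members differed more than that in both treatments or in one. The gene mt-Nd4l had 131.1 and 103.2 CPM in untreated wild-type and null-labelled cells and 61.0 and 41.8 CPM after LPS, with ratios of 0.787 (0.757 to 0.818) and 0.685 (0.661 to 0.710). It was lower in the null-labelled cells in 8 of 8 clusters under both treatments. Its overlapping partner mt-Nd4 was lower by less, with log2 ratios of -0.11 and -0.15. Its complex I partner mt-Nd3 stood 1.29-fold (1.27 to 1.31) higher untreated and 1.03-fold (1.01 to 1.05) higher after LPS. Ndufaf4 stood at 0.717 (0.674 to 0.762) after LPS. Atp5k stood 1.29-fold (1.24 to 1.34) higher untreated and 1.04-fold (1.02 to 1.06) after LPS.

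Ndufv3, a flavoprotein subunit of complex I known for an alternatively spliced form, differed most between genotypes in its LPS ratio, of all members compared. It had 125.4 and 154.0 CPM in wild type and 145.1 and 123.8 CPM in null-labelled cells, untreated and after LPS, so its log2 ratio was 0.29 in one and -0.23 in the other (0.82 and 0.38 with median-of-ratios factors). In null-labelled relative to wild-type cells it was above 0 in 8 of 8 clusters untreated and below 0 in 8 of 8 after LPS. Uqcr11 had the same cluster counts, with log2 ratios of 0.09 and -0.23. Ndufa5, Ndufb2, mt-Nd3 and Atp5k also had lower log2 ratios with the null label, by -0.33 to -0.31. The log2 ratio was lower with the null label for 54 of 75 nuclear subunits (median difference -0.067) and for 3648 of 6201 genes in all (median -0.035), under total scaling. The difference was not tested, since each group is 1 library. Cycling markers also differed between the genotypes, as given above, and their part in these differences was not tested.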

How the data were processed

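Single-cell 3′ RNA libraries were made from bone marrow-derived macrophages, 1 library per genotype and treatment. The deposited table holds UMI counts per gene and cell, which the authors made from reads on mm10 with Cell Ranger 3.1.0 and handled in Seurat 4 with R 4.2, per the submitters' processing notes. The deposited annotation gives each cell's library, cluster name, the fraction of UMIs from mitochondrial genes and the ratio of log10 genes to log10 UMIs, which the authors computed. Filters on cells, the treatment of doublets and the use of strand are not stated in the labels. Counts were summed per library, and per cluster, and scaled to CPM with Python 3.11.15, numpy 2.4.6, scipy 1.17.1 and pandas 2.3.3. Figures were drawn with matplotlib 3.10.9. Log2 ratios took 1 CPM as pseudocount, over genes with at least 20 CPM and 30 UMIs in the higher library. Intervals are exact (Poisson for CPM, conditional binomial for ratios, Clopper-Pearson for shares) at 95% and cover counting error only. With 1 library per group no test across samples was made and no p-value is given. TMM factors came from edgeR 4.0.16 in R 4.3.3, used for scaling alone. The steps were tested on simulated data. Gene positions came from GENCODE M21, which gives 100 of the 101 members a single position. Libraries shared 74 barcodes in all, which were kept.

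The members and lists were chosen with earlier results of these data known. Members named by rule were all mt- genes, the 4 Sdh genes, the alternative forms, and in each complex the 2 highest and 2 lowest per comparison; other lists allow up to 3 at either end. Further subunits, such as the complex I core, were named for their role after their values were seen, and 1 member is not reported by name here. Marker lists were macrophage, neutrophil, B cell, T or NK, erythroid, dendritic, stromal and cycling; no erythroid gene was analysed here. Alternatives tried were other scalings, filters and pseudocounts, other weights of cells and clusters, and leaving out cells. Cells of 8000 to 12000 UMIs alone and the cluster named Macrophage alone were chosen after seeing the data.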

Additional observations from a re-analysis of the deposited data

How the results depend on the processing

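All directions of the LPS ratios held under each alternative run for the medians of nuclear subunits and for the gap between mitochondrial and nuclear medians, and both were smaller in cells of 8000 to 12000 UMIs, where the nuclear median was near 0. With 1 library per group neither replicate spread nor leaving out a replicate could be used, and values are called moved when they left their counting interval; the cause was not tested. No paired analysis was possible because each group is 1 library and nothing was tested. Genotype medians and gaps lay near 0 and changed sign under some settings. Over all members compared, 18 stood at least 1.5-fold higher after LPS in wild type and 10 with the null label. The share of all genes was 11.3% and 11.9%. At least 1.5-fold lower stood 15 members in each, where 37.9% and 40.4% of all genes did. For the counts below, shares of all genes are given for median-of-ratios factors and cells of 8000 to 12000 UMIs alone.

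With TMM factors the nuclear medians were 0.8149 (LPS, wild type), 0.7731 (LPS, null label), 0.0302 (genotype, untreated) and 0.0229 (genotype, LPS), with 51 and 52 members higher and 5 and 6 lower. Median-of-ratios factors gave 0.8247, 0.8000 and, for genotype after LPS, 0.0342, a gap of -1.2906 with the null label, and 52 and 52 members higher and 5 and 6 lower. Of all genes compared, 26.1% and 29.9% stood higher with these factors and 14.5% and 15.9% lower. Totals without Fth1, Ftl1 and Saa3 gave 0.4773, 0.3675, 0.0176 and -0.0591, with 32 and 18 members higher. Totals without mitochondrial UMIs gave 0.2534 and 0.1517 for LPS. When every cell counted once, the medians were 0.2807, 0.2069, 0.0399 and -0.0349 and the gaps -1.3164, -1.2555, -0.0507 and 0.0376. Without the Proliferating cluster the medians were 0.3061, 0.2050 and, for genotype after LPS, -0.0489, with gaps of -1.3736, -1.3055 and 0.0620. Clusters weighted equally gave medians of 0.2097 (LPS, null label) and -0.0472 (genotype, LPS), and gaps of -1.3377, -1.2904, 0.0078 and 0.0791. Without cells above 5% mitochondrial UMIs the medians were 0.2591, 0.1543 and 0.0058 (genotype, untreated), and the gaps -0.8994, -0.8028, -0.0269 and 0.0677.

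A filter at 5 CPM gave 0.0281 for genotype untreated, and no filter gave medians of 0.1847 (LPS, null label) and 0.0328 (genotype, untreated) with gaps of -1.2849 and -0.0281. A pseudocount of 0.1 moved none of these values. In cells of 8000 to 12000 UMIs the medians were 0.0515, 0.0368, 0.0080 and -0.0403 and the gaps -0.7710, -0.8628, 0.0546 and -0.0298, with 4 and 5 members higher. Of all genes compared, 11.8% and 13.7% stood higher in these cells. In the cluster named Macrophage alone the medians were 0.3300, 0.2841 and -0.0077 (genotype, LPS), and the gaps -1.2866, -1.2323 and 0.0302.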
